A study of Homo sapiens with 4 samples.

Results

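The genes described here are the transcription factor NRF2 (gene symbol NFE2L2), its inhibitor KEAP1 and 7 antioxidant enzyme genes, GCLC, GCLM, GSR, TXNRD1, SRXN1, NQO1 and HMOX1. They were chosen by symbol and are 9 of the 25559 gene symbols counted in each library. All 9 passed the filter on low counts, which left 12967 genes, with a lowest count of 239 (HMOX1 in RUNX3KO replicate 1) and a highest of 5226 (TXNRD1 in the same library). The libraries were made from poly(A) RNA of HGC27, an established human gastric cancer cell line from a metastatic lymph node, with 2 libraries of wildtype (wt) cells and 2 of RUNX3 knock-out (RUNX3KO) cells. Knock-out cells had received Cas9 and a guide against RUNX3 from a lentiviral vector, followed by puromycin selection and single-cell cloning. The number of clones is not stated, and no source states that the replicates were separate cultures, so p-values measure only the spread between these libraries. No source states whether wt cells received the vector, selection or cloning, so these cannot be told apart from the disruption of RUNX3. The comparison asks which of these RNAs differed between the RUNX3KO and wt cells.

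NRF2 is a basic leucine zipper factor that, paired with a small MAF protein, binds the antioxidant response element and drives genes for glutathione and thioredoxin metabolism and for detoxification. KEAP1 holds NRF2 in the cytoplasm and, as the substrate adaptor of a CUL3 and RBX1 ubiquitin ligase, has it degraded. Oxidants and electrophiles modify cysteines of KEAP1, and NRF2 then accumulates, a control that acts on the protein rather than on the NFE2L2 transcript. In tumors of the digestive tract, high NRF2 activity is known for its links to drug resistance.

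The core of the antioxidant response element, TGACNNNGC, was searched on both strands in RefSeq promoter windows (GRCh38.p14, 250 bases before to 50 after each annotated start), which exist for 7 of the 9 genes (HMOX1 and GSR are not in that table). It was found for 3 of the 7, KEAP1, GCLM and TXNRD1, and in 16.1% of 27305 genes with such windows. The matches that lie before the start are shown because these genes include both the NRF2 inhibitor and a pair of its targets. Each line gives 10 bases on either side in lower case and the match in capitals, 5′ to 3′ on the gene's own strand.
KEAP1, chr19:10502807-10502835, minus strand: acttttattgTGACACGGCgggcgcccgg
KEAP1, chr19:10502784-10502812, minus strand: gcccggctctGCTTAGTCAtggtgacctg
GCLM, chr1:93909446-93909474, minus strand: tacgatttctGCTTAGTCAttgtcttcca
TXNRD1, chr12:104215670-104215698, plus strand: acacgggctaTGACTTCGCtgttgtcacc
TXNRD1, chr12:104286920-104286948, plus strand: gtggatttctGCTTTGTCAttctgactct
Where the capitals begin with GC, the core is read on the opposite strand. KEAP1 and TXNRD1 each have 2 windows, and GCLM has 1. Both KEAP1 matches lie in its second window, and none was found in its first. The TXNRD1 matches lie in both of its windows, in the order printed. The second KEAP1 match, 31 to 23 bases before the start of that window's transcript, and the GCLM match, 34 to 26 bases before the start of GCLM, are the same letters. A further match in the first TXNRD1 window spans the start and is not printed. The RUNX site TGTGGT was found for 1 of the 7 genes, TXNRD1, against 15.6% of all genes, from 183 to 178 bases before the second of its starts.
TXNRD1, chr12:104286839-104286864, plus strand: aggcagaggaTGTGGTgtcacccaat
These matches describe the letters only, and an element farther from a start than the windows reach would be missed. No binding was measured in these files.

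Libraries held 11731401 to 11733407 reads on genes in wt cells and 11898276 to 12110876 in RUNX3KO cells. RUNX3 itself had 351 and 308 counts in wt and 225 and 185 in RUNX3KO, a log2 fold change of -0.70 (SE 0.0961, edgeR adjusted p = 1.43e-09), which lost its call without RUNX3KO replicate 2 (-0.55, edgeR adjusted p = 0.0649). All 5 markers of gastric epithelium (TFF1, TFF2, MUC5AC, MUC6 and GKN1) had at most 1 count in any library, and EPCAM and KRT19 of the 5 epithelial markers had at most 1, so these libraries lack the defining transcripts of gastric mucosa. The other epithelial markers were low, with a list sum of 2.80 to 2.96 CPM (counts scaled to effective library size) in wt and 8.81 to 10.6 in RUNX3KO. CDH1 and KRT8 were higher in RUNX3KO, with log2 fold changes of 0.77 and 2.33, and KRT18 was not tested. Endothelial markers summed to at most 0.339 CPM and leukocyte markers to at most 2.29 CPM, with CD3E, PECAM1 and CDH5 at 0. The 4 fibroblast markers (PDGFRA, PDGFRB, DCN and LUM) were all lower in RUNX3KO, with a sum of 344 to 346 CPM in wt and 240 to 247 CPM in RUNX3KO, and their part in the results below was not tested.

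Of the 9 genes, 4 were higher in RUNX3KO cells (SRXN1, TXNRD1, GCLM and NQO1), 3 were lower (HMOX1, KEAP1 and GSR), and NFE2L2 and GCLC did not pass the test. Genes were called at an adjusted p under 0.05 in edgeR's quasi-likelihood test, adjusted by Benjamini-Hochberg over every tested gene. By this test 48.9% of all tested genes were called, 24.4% lower and 24.5% higher, so the calls were common in this comparison. The changes were small. The largest was 1.46-fold, none of the 9 reached the 2-fold minimum of the study's methods, which 6.12% of tested genes passed, and none reached 1.5-fold, which 13.4% passed. The median log2 fold change of the 9 was 0.03, beside -0.0021 over all tested genes. In 7 of the 9 the CPM of wt and RUNX3KO libraries did not overlap, and the same held for 72.7% of all tested genes. When a fold change above 1.2 had to be shown (edgeR's glmTreat), SRXN1 and HMOX1 passed, 2 of the 9, while 18.4% of all genes did. With 2 libraries per genotype the smallest p of an exact permutation test (two-sided) is 0.333, so the p-values rest on the spread that edgeR shares across genes.

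**Figure D1:**
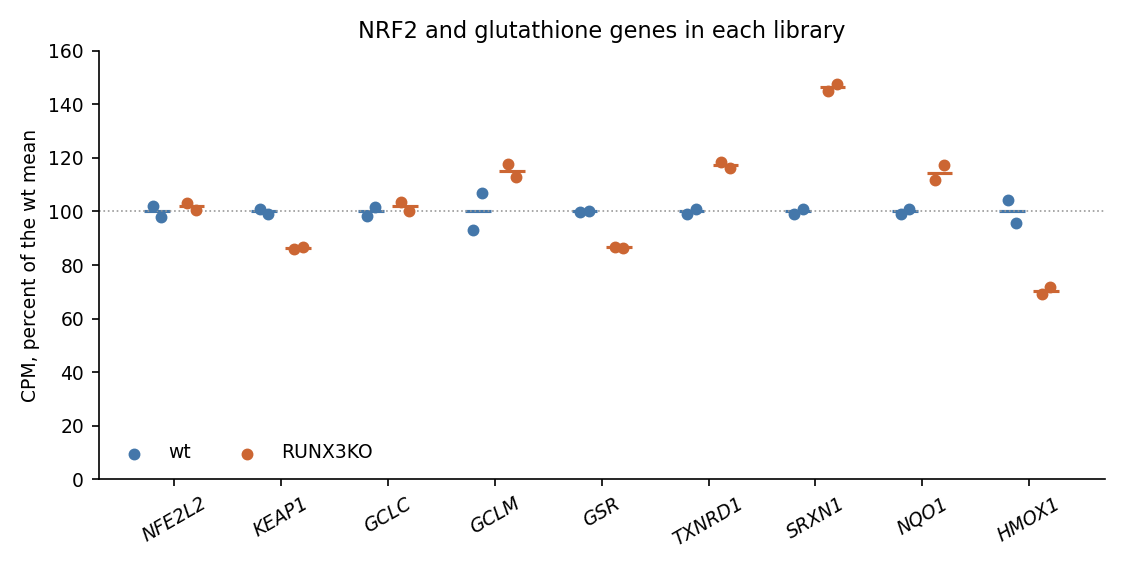
CPM of each gene in each library as a percent of its mean in wt (y axis), with wt libraries in blue, RUNX3KO libraries in orange and a bar at the mean of each pair. SRXN1 stood highest in RUNX3KO at 146% of wt and HMOX1 lowest at 70.5%, while NFE2L2 and GCLC points overlapped between the groups.

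The transcript of NRF2 itself hardly differed. NFE2L2 spans bases 178083395 to 178257484 of chromosome 2 (hg19, minus strand), with counts of 1448 and 1388 in wt and 1465 and 1454 in RUNX3KO. The groups overlapped once scaled, with 123 and 118 CPM in wt and 124 and 121 CPM in RUNX3KO. Its log2 fold change was 0.03 (SE 0.0419, edgeR adjusted p = 0.608), with a 95% interval from -0.05 to 0.11, that is, from 0.963-fold to 1.08-fold. In the GENCODE annotation 23.4% of the exonic bases assigned to NFE2L2 are shared with HNRNPA3 on the opposite strand, and no source says whether the counting used strand, so reads there are uncertain.

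KEAP1, the inhibitor of NRF2, was lower in RUNX3KO cells. KEAP1 spans bases 10596801 to 10614234 of chromosome 19 (minus strand), with counts of 3566 and 3510 in wt and 3043 and 3129 in RUNX3KO. Both RUNX3KO libraries lay below both wt libraries. The level went from 300 ± 3.27 to 259 ± 1.73 CPM (SD, n = 2 per genotype), with a log2 fold change of -0.21 (SE 0.0307, edgeR adjusted p = 7.78e-09), or a change of -13.6%. The genes around KEAP1 were lower too. Of the 40 tested genes nearest to it, 20 on each side, 35 had a log2 fold change below 0, the median was -0.30, and 26 were at least as low as KEAP1. Within each library, the NFE2L2 to KEAP1 ratio per length of transcript was 0.426 and 0.415 in wt and 0.505 and 0.487 in RUNX3KO.

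GCLC and GCLM are the catalytic and modifier subunits of glutamate-cysteine ligase, which makes the first and rate-limiting step of glutathione synthesis. GCLC spans bases 53362139 to 53481768 of chromosome 6 (minus strand), with counts of 779 and 807 in wt and 822 and 809 in RUNX3KO. The CPM of the groups overlapped, at 67.2 ± 1.70 in wt and 68.5 ± 1.66 in RUNX3KO (SD, n = 2 per genotype). The log2 fold change of 0.03 (SE 0.0541, edgeR adjusted p = 0.712) had a 95% interval from -0.08 to 0.13, which leaves out a change of more than 1.10-fold.

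GCLM spans bases 94350755 to 94375012 of chromosome 1 (minus strand), with counts of 339 and 390 in wt and 429 and 419 in RUNX3KO. Both RUNX3KO libraries were above both wt libraries, but the wt pair lay apart. Its level was 30.9 ± 3.06 CPM in wt and 35.6 ± 1.06 CPM in RUNX3KO (SD, n = 2 per genotype), with a log2 fold change of 0.20 (SE 0.0777, edgeR adjusted p = 0.0226). This was the least firm of the 7 calls. GCLM kept its direction but not its call with DESeq2 (adjusted p = 0.245) and with no filter on low counts (edgeR adjusted p = 0.129), and without wt replicate 1, the lower of the wt pair, its log2 fold change dropped to 0.11 (edgeR adjusted p = 0.373). It also lost the call when RUNX3KO replicate 1 or 2 was left out, with edgeR adjusted p-values of 0.319 and 0.222. The GCLM to GCLC ratio per length of transcript was 0.337 and 0.375 in the wt libraries and 0.405 and 0.401 in the RUNX3KO libraries.

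Glutathione and thioredoxin are each kept reduced by a flavoenzyme that uses NADPH, and the genes of these enzymes moved apart. GSR, glutathione reductase, spans bases 30535583 to 30585363 of chromosome 8 (minus strand), with counts of 2197 and 2208 in wt and 1913 and 1938 in RUNX3KO. GSR fell from 187 ± 0.714 to 162 ± 0.620 CPM (SD, n = 2 per genotype), with a log2 fold change of -0.21 (SE 0.0362, edgeR adjusted p = 8.39e-07). Both RUNX3KO libraries lay below both wt libraries. The genes around GSR had a median log2 fold change of 0.04.

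TXNRD1 is the cytosolic thioredoxin reductase, a selenoprotein, and spans bases 104609557 to 104744085 of chromosome 12 (plus strand). It had 4383 and 4452 counts in wt and 5226 and 5224 in RUNX3KO. It rose from 374 ± 4.24 to 439 ± 5.83 CPM (SD, n = 2 per genotype), with a log2 fold change of 0.23 (SE 0.0275, edgeR adjusted p = 1.20e-11). Both RUNX3KO libraries exceeded both wt libraries, and 4 of the 40 nearest tested genes were at least as high. The TXNRD1 to GSR ratio per length of transcript was 1.58 ± 0.0118 in wt and 2.13 ± 0.0202 in RUNX3KO (SD, n = 2 per genotype).

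SRXN1, sulfiredoxin, restores peroxiredoxins that hydrogen peroxide has over-oxidized, and it showed the largest change of the 9 genes. It spans bases 627259 to 633844 of chromosome 20 (minus strand), with counts of 1313 and 1340 in wt and 1925 and 1995 in RUNX3KO. SRXN1 rose from 112 ± 1.65 to 165 ± 2.01 CPM (SD, n = 2 per genotype), with a log2 fold change of 0.55 (SE 0.0399, edgeR adjusted p = 5.34e-22). The groups were far apart relative to the spread of either pair. By p, SRXN1 ranked 320 of the 12967 tested genes. Near the end of its chromosome arm only 28 neighbours were available, at a median of 0.10 on the log2 scale, and 1 of them was at least as high. Over the 4 libraries, the genes whose log2 CPM followed SRXN1 most closely were UBQLN1, NINJ1 and RTKN2, at Euclidean distances of 0.0038, 0.011 and 0.012 between centered values. Their log2 fold changes were 0.55, 0.55 and 0.56. Because these genes were picked as the nearest of all tested genes, similar fold changes follow from the choice.

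NQO1 encodes a quinone reductase that spares quinones the single-electron route and is widely read as a marker of NRF2 activity. It spans bases 69740899 to 69760571 of chromosome 16 (minus strand), with counts of 3998 and 4072 in wt and 4515 and 4816 in RUNX3KO. It rose from 342 ± 4.53 to 392 ± 12.8 CPM (SD, n = 2 per genotype), with a log2 fold change of 0.20 (SE 0.0287, edgeR adjusted p = 8.46e-09). Both RUNX3KO libraries were above the wt pair. The genes around NQO1 had a median of 0.12 on the log2 scale, and 13 of the 40 nearest were at least as high as NQO1.

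HMOX1, heme oxygenase, opens the heme ring to biliverdin, iron and carbon monoxide, and it fell most. It spans bases 35776354 to 35790207 of chromosome 22 (plus strand), with counts of 360 and 330 in wt and 239 and 252 in RUNX3KO. HMOX1 dropped from 29.2 ± 1.79 to 20.6 ± 0.503 CPM (SD, n = 2 per genotype), with a log2 fold change of -0.50 (SE 0.0882, edgeR adjusted p = 9.00e-07). The RUNX3KO libraries lay well below the wt pair. All 40 tested genes nearest to HMOX1 had a log2 fold change below 0, with a median of -0.53, and 21 were at least as low as HMOX1. Of 293 tested genes with a position on chromosome 22, 249 (85.0%) were called lower and 6 higher, with a chromosome median of -0.53. Set against its neighbours, HMOX1 differed by 0.02 on the log2 scale, KEAP1 by 0.09, NQO1 by 0.07, TXNRD1 by 0.19, GCLM by 0.20, SRXN1 by 0.45 and GSR by -0.25. The part of chromosome position in these changes was not tested. In RNA from many cells, fewer cells with a transcript and less of it per cell cannot be told apart.

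**Figure D2:**
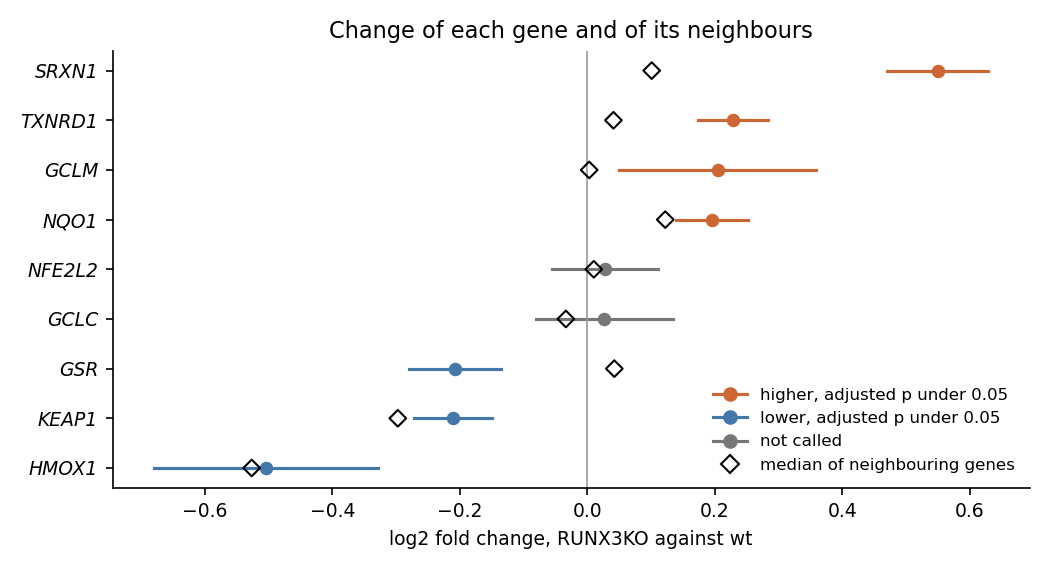
Log2 fold change (RUNX3KO against wt, x axis) of each gene with its 95% interval, colored by call, and the median of the nearest tested genes, up to 20 on each side, as an open diamond. The diamonds lie at -0.53 for HMOX1 and -0.30 for KEAP1, close to or beyond those genes, and between -0.03 and 0.12 for the other 7.

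Levels of different genes were compared as RPKM, which is CPM divided by the length of the gene model in kilobases. Over all merged exons of each gene, NQO1 had the highest level in wt cells at 115 ± 1.53 RPKM (SD, n = 2), followed by KEAP1 at 83.9, TXNRD1 at 55.8, GSR at 51.8, SRXN1 at 44.5, HMOX1 at 12.7, NFE2L2 at 8.02, GCLC at 7.80 and GCLM at 5.69 RPKM. The wt libraries of NFE2L2 (8.19 and 7.85 RPKM) and GCLC (7.66 and 7.94 RPKM) overlapped, with SDs of 0.238 and 0.197 RPKM. The low place of NFE2L2 depended on the length used, since its merged exons span 14975 bases and its MANE Select transcript 2446 bases. Over MANE Select transcripts, a choice made after seeing the data, NFE2L2 had 49.1 ± 1.46 RPKM in wt and 50.1 ± 0.919 RPKM in RUNX3KO (SD, n = 2 per genotype). On that scale 6 of the 9 genes kept their place in wt, NQO1 led both groups (136 ± 1.80 RPKM in wt and 155 ± 5.07 RPKM in RUNX3KO), and GCLM was last (6.32 ± 0.628 and 7.29 ± 0.216 RPKM). The ranges of mean and SD of HMOX1 and GCLC overlapped in wt, at 18.8 ± 1.15 and 17.8 ± 0.448 RPKM. In RUNX3KO, HMOX1 lay below GCLC, at 13.3 ± 0.324 against 18.1 ± 0.439 RPKM. KEAP1 held place 2 and TXNRD1 place 3 in wt, and they changed places in RUNX3KO. SRXN1 went from place 6 to place 4.

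**Figure D3:**
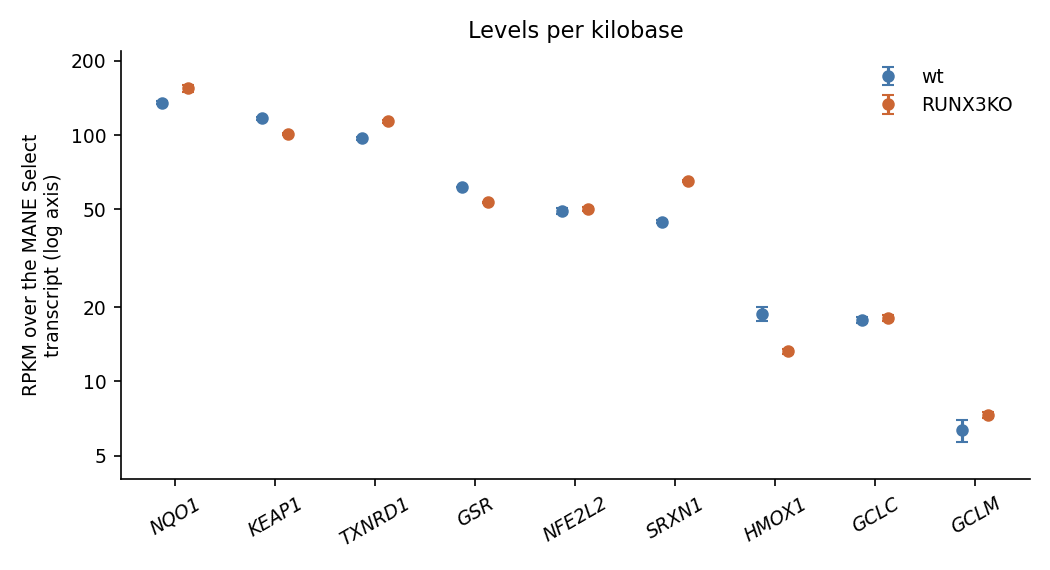
Level of each gene in RPKM over the MANE Select transcript (log axis) in wt (blue) and RUNX3KO (orange), as mean and SD of 2 libraries, ordered by the wt level. NQO1 stood highest and GCLM lowest in both groups.

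A wider set of 128 antioxidant genes in 7 lists was read from the same fit, and 101 of them were tested. In all, 30 were lower and 34 higher in RUNX3KO cells (29.7% and 33.7% of those tested, beside 24.4% and 24.5% of all genes), with a median of 0.02 on the log2 scale and 4 genes past 2-fold. Without RUNX3KO replicate 1, and likewise without RUNX3KO replicate 2, 17 were lower and 17 higher. With glmTreat 13 were lower and 9 higher, and of the genes named below CUL3, SQSTM1, DPP3, TXN, ABCC1, FTH1, CTH, SLC3A2, GLRX2, GLRX3, TXNRD2, SOD1, CAT and HEBP1 lost their calls. Of these genes, FTH1, FTL, GGT1, SLC1A1, MAFF and TXNRD2 are named below after their values were seen.

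Among 14 tested regulators of NRF2, 5 were higher and 3 lower, with a median of 0.07. The number lower went to 1 without RUNX3KO replicate 1 or 2 and with DESeq2, and to 2 without wt replicate 1. With glmTreat 1 was lower and 3 higher. The scaffold of the KEAP1 ligase, CUL3, rose by 0.16 on the log2 scale (SE 0.0379, not called without RUNX3KO replicate 2), while its RING subunit RBX1 went from 75.2 ± 3.26 to 50.5 ± 0.589 CPM (SD, n = 2 per genotype), with a log2 fold change of -0.58 (SE 0.0568, edgeR adjusted p = 4.28e-15). RBX1 is on chromosome 22, where its neighbours had a median of -0.51. SQSTM1, the autophagy receptor p62 that competes for KEAP1, rose by 0.26 (SE 0.0338). FBXO22, an F-box protein whose substrates include BACH1, rose by 0.50 (SE 0.0554), and the NRF2 relative NFE2L3 by 0.39 (SE 0.0509). The 40 neighbours of FBXO22 on chromosome 15 had a median of 0.31 with 2 of them below 0, and 62.8% of tested genes on that chromosome were called higher. DPP3, which also binds KEAP1, changed by -0.12 (SE 0.0386, edgeR adjusted p = 0.00502) and lost this call with DESeq2 (adjusted p = 0.121) and without RUNX3KO replicate 1 or 2. The repressor BACH1, which competes at antioxidant response elements, did not pass the test at 0.04 (SE 0.0687), nor did the partner MAFG at 0.02 (SE 0.0499). MAFG changed sign with library-size and upper-quartile scaling and without RUNX3KO replicate 2.

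Among 25 tested further targets of NRF2, 10 were lower and 8 higher, with a median of 0.07. There were 6 lower and 3 higher without RUNX3KO replicate 1, 6 lower and 2 higher without RUNX3KO replicate 2, and 8 lower and 5 higher both with DESeq2 and with no filter on low counts. With glmTreat 5 were lower and 0 higher, and 0 were higher at an unadjusted p under 0.05. The thioredoxin gene TXN rose from 345 ± 4.35 to 414 ± 5.47 CPM (SD, n = 2 per genotype), with a log2 fold change of 0.26 (SE 0.0280), and its neighbours on chromosome 9 had a median of 0.28. ABCC1, an exporter of glutathione conjugates, rose by 0.19 (SE 0.0420), a call lost without RUNX3KO replicate 1 or 2. The glycine transporter gene SLC6A9 had the largest fall of this list, -0.83 (SE 0.0689, edgeR adjusted p = 9.69e-19), and EPHX1, microsomal epoxide hydrolase, changed by -0.47 (SE 0.0637). The ferritin genes FTH1 and FTL, which store the iron that heme oxygenase frees, fell by 0.26 and 0.36 on the log2 scale. Both have many processed pseudogenes, so their counts are uncertain. The 40 neighbours of FTL on chromosome 19 had a median of -0.23, with 30 of them below 0. The neighbours of FTH1 on chromosome 11 had a median of 0.01.

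In the list for glutathione synthesis and recycling, 4 of 9 tested genes were lower and 2 higher, with a median of -0.22, and 2 were lower and 2 higher without RUNX3KO replicate 1 or 2. With glmTreat 2 were lower and 1 higher. GGT7, of the gamma-glutamyltransferase family, changed by -0.49 (SE 0.0842) and CTH, which makes cysteine from cystathionine, by -0.33 (SE 0.0915). CTH lost its call with DESeq2 (adjusted p = 0.0834) and without RUNX3KO replicate 1 or 2. SLC3A2, the heavy chain of the cystine transporter, rose by 0.16 (SE 0.0271). Past 2-fold were GGT1, with 81 and 78 counts in wt and 32 and 20 in RUNX3KO, and the glutamate and cysteine transporter gene SLC1A1, with 5 and 9 counts in wt and 40 and 31 in RUNX3KO. GGT1 has near-identical relatives on chromosome 22, so its counts are uncertain, and its neighbours had a median of -0.49. SLC1A1 was not tested where at least 10 counts were required in every library, which left 1 gene of this list higher. The 29 neighbours of SLC1A1 on chromosome 9 had a median of 0.89.

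Of 20 tested genes for glutathione peroxidases, transferases and glutaredoxins, 4 were lower and 4 higher, with a median of -0.02. In edgeR's test the number higher went to 0 without RUNX3KO replicate 1 (2 lower, and 3 higher at an unadjusted p under 0.05), to 1 without RUNX3KO replicate 2 (3 lower) and to 2 without wt replicate 1 (4 lower). On all libraries DESeq2 called 1 higher and 3 lower, and glmTreat 0 higher (0 at an unadjusted p under 0.05) and 2 lower. GSTP1, the main transferase of these cells by count, fell from 509 ± 7.52 to 399 ± 7.10 CPM (SD, n = 2 per genotype), with a log2 fold change of -0.35 (SE 0.0268, edgeR adjusted p = 9.05e-21). The microsomal transferase gene MGST3 changed by -0.58 (SE 0.103). GLRX3 rose by 0.21 (SE 0.0492, not called without RUNX3KO replicate 1) and GLRX2, a mitochondrial glutaredoxin, by 0.39 (SE 0.118), a call that GLRX2 lost with DESeq2 (adjusted p = 0.136) and without wt replicate 1 or either RUNX3KO replicate.

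Of 18 genes for thioredoxins, peroxiredoxins and methionine sulfoxide reductases, all tested, 8 were higher and 6 lower, with a median of -0.10. The number higher went to 3 with library-size or upper-quartile scaling, with no filter on low counts, with DESeq2 or without RUNX3KO replicate 1, to 4 without wt replicate 1 or RUNX3KO replicate 2, and to 5 without wt replicate 2. The number lower went to 3 without RUNX3KO replicate 1 or 2. With glmTreat 2 were lower and 2 higher. TXNIP, which binds and inhibits thioredoxin, rose from 26.7 ± 2.40 to 45.2 ± 2.56 CPM (SD, n = 2 per genotype), with a log2 fold change of 0.76 (SE 0.0763, edgeR adjusted p = 8.59e-15). PRDX3, the mitochondrial peroxiredoxin, rose by 0.34 (SE 0.0304), whereas PRDX5 changed by -0.48 (SE 0.0383). Mitochondrial thioredoxin, TXN2, changed by -0.47 (SE 0.0483), the opposite direction to TXN, and TXN2 is on chromosome 22 with a neighbourhood median of -0.47.

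For superoxide and hydrogen peroxide removal, SOD1 rose from 317 ± 2.42 to 381 ± 3.12 CPM (SD, n = 2 per genotype), with a log2 fold change of 0.26 (SE 0.0286), while catalase, CAT, changed by -0.37 (SE 0.0695). These were the only calls among 4 tested genes of that list. Both were lost with glmTreat, at adjusted p-values of 0.658 for SOD1 and 0.0960 for CAT, which left 0 calls (1 lower and 0 higher at an unadjusted p under 0.05) where DESeq2 called 1 lower and 1 higher. Heme and iron handling had 6 higher and 2 lower of 11 tested genes and a median of 0.19. The number higher went to 3 without RUNX3KO replicate 1 or 2, with DESeq2 and with glmTreat, and the number lower to 1 without RUNX3KO replicate 2, with no filter on low counts, with DESeq2 and with glmTreat. SLC40A1, the iron exporter ferroportin, rose from 5.30 ± 0.0583 to 11.8 ± 0.974 CPM (SD, n = 2 per genotype), with a log2 fold change of 1.15 (SE 0.152, edgeR adjusted p = 3.12e-10). STEAP3, a ferrireductase, rose by 1.02 (SE 0.0851). ACO1, the cytosolic aconitase that doubles as an iron sensor, changed by -0.44 (SE 0.0550), although its neighbours on chromosome 9 had a median of 0.28, and HEBP1, a heme-binding protein gene, changed by -0.37 (SE 0.0978). HEBP1 lost its call with DESeq2 (adjusted p = 0.0758), with no filter on low counts (edgeR adjusted p = 0.0885) and without RUNX3KO replicate 2 (-0.21, edgeR adjusted p = 0.211).

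HMOX1 and the listed genes on chromosome 22 went one way. All 6 tested genes there (HMOX1, RBX1, MAFF, GGT1, TXN2 and TXNRD2) had log2 fold changes below 0, and 5 were called lower, with MAFF, a small MAF gene at 21, 19, 13 and 14 counts, at -0.58 (SE 0.345) and not called. TXNRD2, mitochondrial thioredoxin reductase, changed by -0.39 (SE 0.0791), a call lost without RUNX3KO replicate 1 or 2, where its neighbours had a median of -0.59. The share of chromosome 22 genes called lower, 85.0%, stands beside this count.

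**Figure D4:**
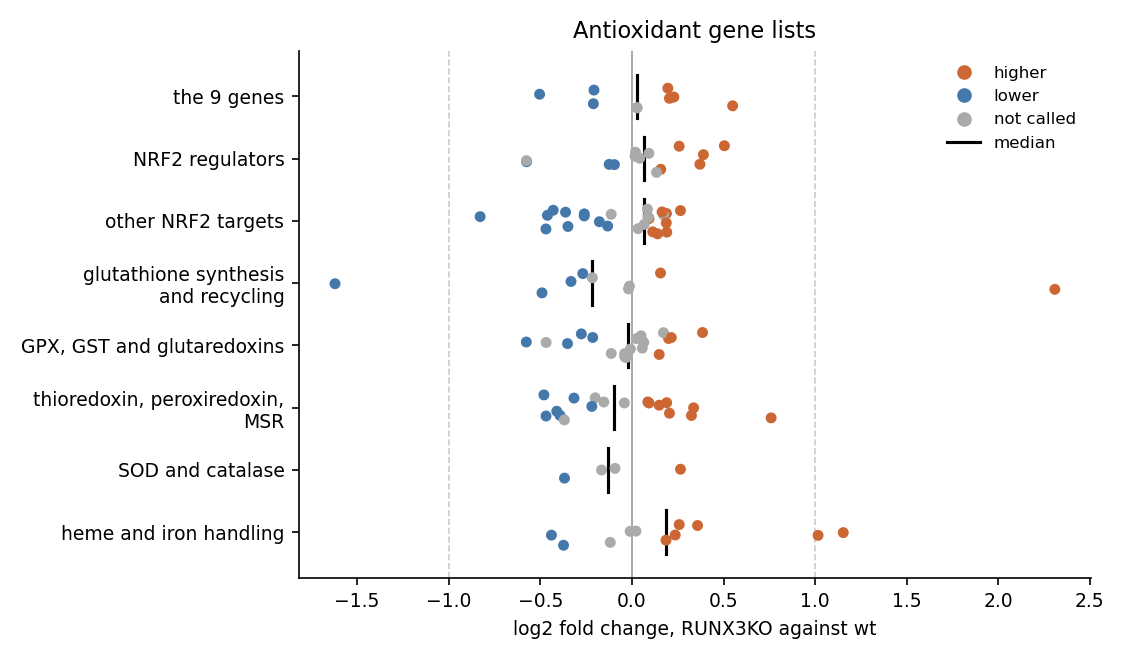
Log2 fold change (RUNX3KO against wt, x axis) of each tested gene in the 9-gene set and the 7 wider lists, with higher genes in orange, lower genes in blue, genes not called in grey and a black line at each list's median. Dashed lines mark 2-fold. List medians lay between -0.22 and 0.19, and 4 genes lay beyond 2-fold.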

How the data were processed

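The authors deposited raw counts of reads per gene symbol for each of the 4 libraries, without normalization. The submitters' processing notes list HISAT2 2.1.0, HTSeq and hg19, the paper's methods name STAR and FeatureCounts with GENCODE on hg19, and the tables close with the 5 rows for unassigned reads that htseq-count writes. The strand setting is not given in the sources used here. The 5 rows, 25.9% to 28.1% of all counts, were left out. Depth was 11731401 to 12110876 reads on genes per library. Intervals and SEs cover the spread between these libraries.

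The test on counts used edgeR 4.0.16 under R 4.3.3 (filterByExpr at its default minimums, 10 for the count and 15 for the total, TMM scaling, glmQLFit and glmQLFTest at defaults, no replicate block) and Benjamini-Hochberg adjustment over 12967 genes. The common dispersion was 0.000211. Replicates differed slightly more than counting noise, with chi-square values of 1.23 and 1.19 per degree of freedom. The SE was recovered from the estimate and its F statistic. The steps were tested on simulated counts. Alternatives were other scalings, filters and tests (DESeq2 1.42.0, limma-voom with limma 3.58.1, exact test, glmTreat), a replicate block, and each library left out.

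Positions and lengths came from GENCODE on GRCh37, the same build as hg19. No source gives the annotation release used for the counting, so its gene models may differ from these. Lengths, RPKM and shared exonic bases depend on the models used here. Of 25559 symbols, 19607 matched directly and 2160 by synonym. The members and lists were chosen with earlier results of these data known. Named genes were the 9 members, RUNX3, CUL3, BACH1, MAFG and SQSTM1, the 3 genes nearest in profile to the member that changed most, and in each list the 2 largest falls and 2 largest rises among called genes with at least 5 CPM and no overlap between groups. Exceptions are marked in the text. The values of 1 gene of the wider lists are not reported here.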

Additional observations from a re-analysis of the deposited data

How the results depend on the processing

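With 14 alternatives for each gene, SRXN1 and HMOX1 kept direction and call in all, and KEAP1, NQO1, TXNRD1 and GSR in all but edgeR's glmTreat against a fold change of 1.2, where 1 of the 9 genes was called lower and 1 higher. GCLM lost its call in 6 (glmTreat, DESeq2, no filter on low counts with an adjusted p of 0.129, and without wt replicate 1, RUNX3KO replicate 1 or RUNX3KO replicate 2), with log2 fold changes from 0.11 to 0.31. Neither NFE2L2 nor GCLC was called in any, and NFE2L2 ranged from -0.0036 without wt replicate 2 to 0.059 without wt replicate 1. MAFG went to -0.0028 with library size alone, -0.0035 with upper-quartile scaling and, with a library left out, from -0.047 without RUNX3KO replicate 2 to 0.080 without RUNX3KO replicate 1. RUNX3 lost its call without RUNX3KO replicate 2 (adjusted p = 0.0649). In the other 38 named genes, 495 of 531 comparisons kept direction and side of the threshold, 33 lost the call and 3 reversed, all of MAFG.

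Over all genes, DESeq2 called 1863 lower and 1829 higher and glmTreat 1474 and 912, against 3158 and 3183 in the reported test. In the wider lists glmTreat called 13 lower and 9 higher, and DESeq2 21 lower and 20 higher. With each library left out, calls ranged from 1378 to 2806 lower and 1285 to 2745 higher over all genes, from 17 to 29 in each direction in the wider lists, and from 3 to 4 higher among the 9 genes, with 3 lower each time. The lowest numbers over all genes came without RUNX3KO replicate 2, and without RUNX3KO replicate 1 they were 1531 and 1483. A smaller fit with 1 library in a group assumes that it varies like the other pair, and the cause of the other differences was not tested.

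Replicate numbers did not pair the libraries (correlation of replicate differences between the groups -0.012 over 9493 genes). With a replicate block, 3143 genes were lower and 3143 higher, and the 9 genes had 3 lower and 4 higher as before. Genes with few counts, such as SLC1A1, are imprecise at this depth.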

Other observations

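Several genes of the wider antioxidant lists had few or no counts in these libraries. Of 33 further NRF2 targets, 3 had at most 3 counts in every library. The aldo-keto reductase genes AKR1B10, AKR1C1, AKR1C2 and AKR1C3 had at most 7 counts in any library, and none of the 4 was tested. Their near-identical sequences may also send reads to more than 1 gene, so low counts are uncertain. The peroxidase genes GPX2, GPX3 and GPX7 had at most 1 count in any library, and so did the transferase genes GSTA1, GSTA2, GSTM1, GSTM4, GSTM5 and GSTT1. The GSTA and GSTM genes also have close relatives, so their low counts carry the same uncertainty. Of the 128 genes in the wider lists, 21 had at most 3 counts in every library, 10 of them from the list of peroxidases, transferases and glutaredoxins and none from the thioredoxin and peroxiredoxin list, in which all 18 genes were tested. These genes were picked out after their values were seen.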
